A study of Drosophila melanogaster with 17 samples.

Results

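The data describe RNA bound to tagged ribosomes in legs of adult Drosophila melanogaster, compared between flies with and without the DIP-gamma-GAL4 driver. The members are the 5 leg samples of the 17 samples in the series, and every gene with at least 1 count in at least 1 of them, which were 14200 of the 16977 genes in the tables. The TRAP group comprised 3 samples from flies with the driver, DIP-gamma-GAL4/UAS-Flag-GFP-RpL10, and the control group comprised 2 samples from flies without it, UAS-Flag-GFP-RpL10/+. Females carrying the transgene were crossed to driver males for the TRAP group, and to males of another strain, without the driver, for the controls. The driver and the rest of the paternal genome therefore cannot be told apart. All flies were 2 days old and kept under the same conditions, and both groups carried the UAS transgene, which encodes the ribosomal protein RpL10 fused to a Flag epitope and GFP. The methods describe each sample as a large separate pool of flies of both sexes in equal numbers, although sex-specific RNA differed between the pools (below). Legs were shaken from frozen, beheaded bodies through sieves, lysed whole with their muscle and cuticle, and incubated with beads carrying an anti-Flag antibody. The study also holds heads of the same 2 genotypes and larval axonal sections with another driver. The study discarded 1 more leg control, which was contaminated with DNA.

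In translating ribosome affinity purification (TRAP), a tagged ribosomal protein is expressed in chosen cells, and mRNAs are recovered together with the ribosomes that carry the tag. The cell bodies of leg motor neurons lie in the ventral nerve cord of the thorax, and only their axons enter the leg, so tagged ribosomes of these neurons in an isolated leg are axonal. The study chose the DIP-gamma-GAL4 driver because it labelled motor axons, and no nuclei, within the leg. It also found that the transgene is expressed to some extent without GAL4, so the controls measure RNA from leaky expression in any leg tissue as well as RNA that sticks to the beads.

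The libraries held between 65975150 and 82987356 counts. The lowest detectable value was taken as 3 counts, at most 0.0455 CPM (counts per 1000000) of an unscaled library total. All other CPM use library totals scaled with TMM factors of 0.985 to 1.03. All 5 carry the same sequencing batch label. Depth was alike, but several libraries differed from their own group. The methods state an equal mix of the sexes, yet TRAP 2 had 2.46 CPM of roX1 and 0 of roX2, the RNAs of male dosage compensation, where the other samples had 30.4 to 51.2 and 3.83 to 7.30 CPM. TRAP 3 had 15.0 CPM of the yolk protein gene Yp1, expressed in females, where the other samples had 1080 to 2115 CPM. The pools therefore differed in their content of sex-specific RNA. Control 2 stood apart along the first principal component (29.1% of the variance), with a score of 102 against 34.8 for control 1 and −62.9 to −32.0 for TRAP samples. Correlations of log2 CPM were 0.936 to 0.947 within groups and 0.930 to 0.945 between them, so that the groups were barely further apart than replicates. The p-values below measure the spread between these 5 pools.

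Few genes differed between TRAP and control legs in the quasi-likelihood F-test of edgeR (two-sided, Benjamini-Hochberg adjusted p under 0.05). Of the 14200 genes, 16 rose in TRAP samples (0.113%) and 17 fell (0.12%), and in each of these 33 genes every TRAP sample lay on one side of both controls. The genes that rose included the junction gene Ssk, the cytochrome P450 genes Cyp6a17 and Cyp6a20, and 3 immune-induced peptide genes. Those that fell were led by CG14456 and also included 2 P450 genes and 3 scpr genes. At an unadjusted p under 0.05 there were 664 genes higher (4.68%) and 626 lower (4.41%), and the groups did not overlap in 1682 genes above (11.8%) and 1824 below (12.8%). The study's own test, DESeq2, called 357 genes higher (2.51%) and 247 lower (1.74%), all 33 edgeR genes among them. The edgeR calls depended on the pair of controls, since without control 1 there were 2 genes higher and 7 lower, and without control 2 there were 0 higher and 1 lower. Without TRAP 2 there were 44 and 27, and without TRAP 3 there were 95 and 54, and both times these held the original 33 genes. Without TRAP 1 there were 17 higher and 9 lower.

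**Figure D1:**
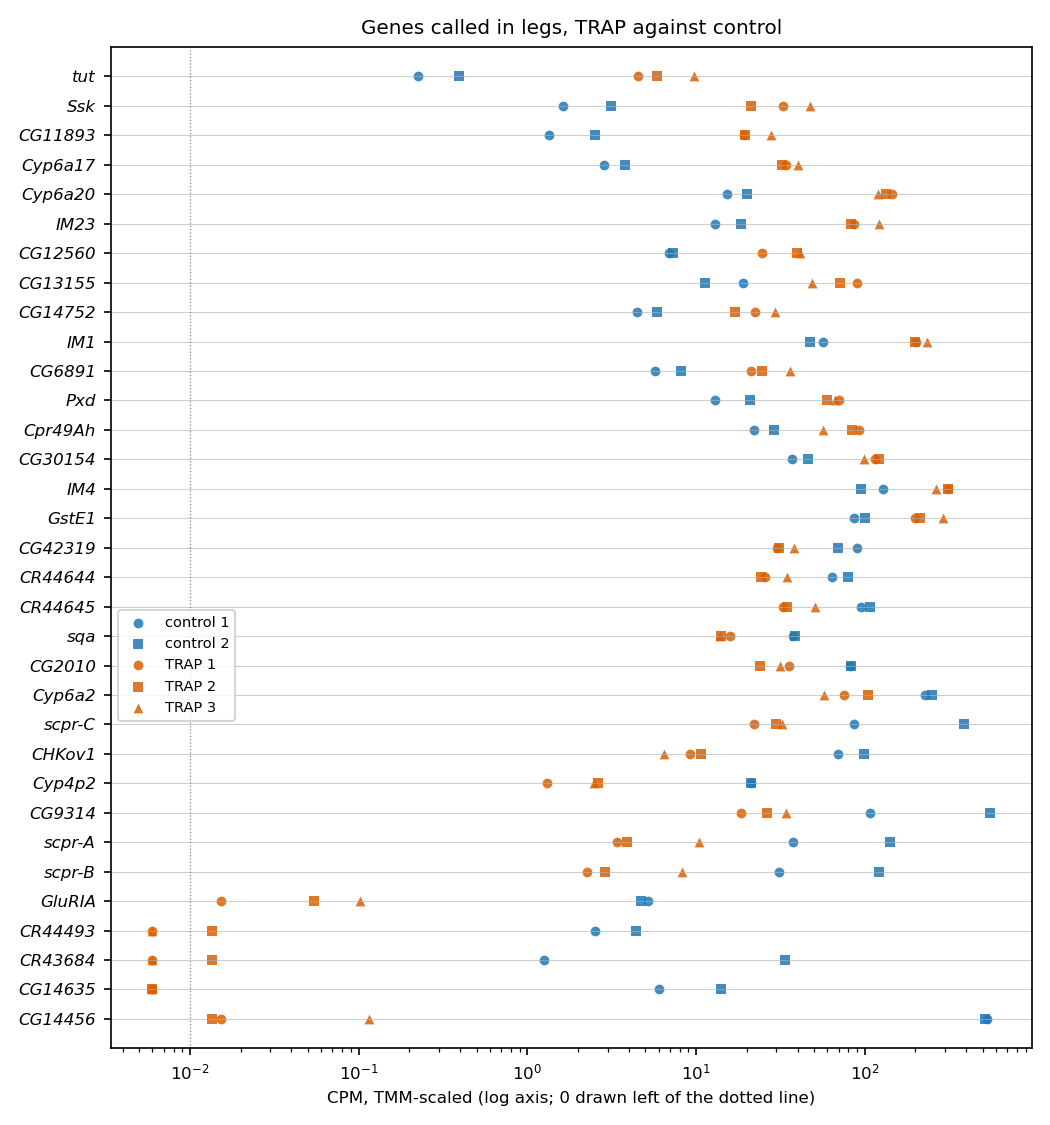
Level of the 33 genes that differed between TRAP and control legs (edgeR, adjusted p under 0.05), in CPM on a log axis, with 1 point per sample and zeros drawn to the left of the dotted line. For every gene the 3 TRAP samples lie on one side of the 2 controls, and CG14456 falls from over 500 CPM to under 0.2.

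Ssk (Snakeskin, FBgn0036945, chromosome 3L, 20188522 to 20189779 in BDGP6) encodes a membrane protein of the smooth septate junctions that seal the gut epithelium. It was measured at 1.62 and 3.14 CPM in controls and at 32.8, 21.3 and 47.2 CPM in TRAP samples. The lowest TRAP sample was well above the higher control, and the mean went from 2.38 ± 1.07 (SD, n = 2) to 33.8 ± 13.01 CPM (SD, n = 3). The log2 fold change was 3.83 ± 0.42 (SE, adjusted p = 0.00879 in edgeR). Ssk overlaps CG42674 on the other strand of the annotation, which had a log2 fold change of 0.37 (edgeR adjusted p = 0.73), and reads of the 2 genes cannot be told apart where they overlap. The 2 partners of Ssk in these junctions, mesh and Tsp2A, were at most 1.71 CPM in all 5 samples, with overlapping groups, and of the 24 septate junction genes tested Ssk was the only one under the adjusted threshold. The median log2 fold change of that list was −0.06, beside −0.01 over all genes.

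Cytochrome P450 genes encode haem enzymes that oxidise hormones, lipids and foreign compounds. Cyp6a17 (FBgn0015714, chromosome 2R, 14873953 to 14875739), known for a role in temperature preference, was at 2.84 and 3.80 CPM in controls and at 34.3, 32.1 and 40.3 CPM in TRAP samples. Cyp6a20, known from work on aggression, was at 15.4 and 19.9 CPM in controls and at 145, 133 and 121 CPM in TRAP samples. Both were separated from controls by more than the range of either group. The log2 fold changes were 3.42 for Cyp6a17 and 2.91 for Cyp6a20 (standard errors 0.24 and 0.20), each with an edgeR adjusted p of 0.000517. In the opposite direction, Cyp4p2 was at 21.1 and 21.3 CPM in controls and at 1.31, 2.61 and 2.48 CPM in TRAP samples, a log2 change of −3.31 ± 0.34 (SE, adjusted p = 0.00453 in edgeR). Cyp6a2, an enzyme linked to insecticide metabolism, was at 227 and 251 CPM in controls and at 75.4, 105 and 57.4 CPM in TRAP samples, with a log2 change of −1.60 ± 0.23 (SE, adjusted p = 0.0363 in edgeR). These were the only 4 of 76 P450 genes under the adjusted threshold. At an unadjusted p under 0.05, 4 of the 76 were higher and 14 lower, and the median was −0.16. Over all genes tested, 4.68% were higher and 4.41% lower at that level.

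Cyp6a17 and Cyp6a20, which both rose, lie 6379 bp apart in one cluster of Cyp6a genes on chromosome 2R. Cyp6a20 is flanked by Cyp6a9 and Cyp6a21, in which every TRAP sample was below both controls and the log2 fold changes were both −0.51 (edgeR adjusted p = 0.329 and 0.461). Cyp6a17 is flanked by Cyp6a22 at 0.10 and, 90 bp away, by Cyp6a23 at −0.22. Cyp4p1, 210 bp from Cyp4p2, had a value of 0.33. Of these flanking genes 0 passed the adjusted threshold. Cyp6a2 overlaps Epac in the annotation and Cyp4p2 overlaps hig, and the strand setting of the counting is not given in the sources used here, so reads of such partners cannot be told apart.

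Among genes with a choline kinase-like (CHK) domain on chromosome 3R, a family that includes ecdysteroid kinases, 1 rose and 1 fell. CG11893 was at 1.35 and 2.52 CPM in controls and at 19.2, 19.5 and 28.0 CPM in TRAP samples, a log2 change of 3.52 ± 0.36 (SE, adjusted p = 0.00453 in edgeR). CHKov1 was at 69.0 and 99.1 CPM in controls and at 9.21, 10.7 and 6.50 CPM in TRAP samples, a log2 change of −3.26 ± 0.25 (SE, adjusted p = 0.00087 in edgeR). Of the genes next to CHKov1, CHKov2 was at −0.09 with overlapping groups, and CG10562 was at −0.80 with every TRAP sample below both controls (edgeR adjusted p = 0.134). Next to CG11893, CG31098 was at −0.13 with overlapping groups, while CG13658 was at 2.47 and 2.88 CPM in controls and at 0.861, 0.421 and 0 CPM in TRAP samples, again below both controls (log2 fold change −2.64, edgeR adjusted p = 0.65).

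Immune-induced (IM) peptides are small secreted peptides that the fat body releases into the haemolymph after infection, several of them encoded side by side on chromosome 2R. Of 15 such genes 3 rose in TRAP legs. IM23 was at 12.9 and 18.4 CPM in controls and at 86.4, 83.2 and 122 CPM in TRAP samples, with a log2 change of 2.64 ± 0.25 (SE, adjusted p = 0.00414 in edgeR). Its neighbour IM1, 714 bp away, was at 56.4 and 47.5 CPM in controls and at 200.5, 197 and 233 CPM in TRAP samples, with a log2 change of 2.02 ± 0.18 (SE, adjusted p = 0.00279 in edgeR). IM4 was at 129 and 94.5 CPM in controls and at 311, 311 and 265 CPM in TRAP samples, with a log2 change of 1.40 ± 0.19 (SE, adjusted p = 0.0295 in edgeR). In all 3 the lowest TRAP sample exceeded the higher control. Over the 15 genes, 9 were higher and 0 lower at an unadjusted p under 0.05, and the median log2 fold change was 0.56. Without control 2 there were 5 higher and the median was 0.29, without control 1 there were 12 and the median was 1.05, and both times 0 of the 15 passed the adjusted threshold. The gene with the most counts, CG18067, went the other way, with every TRAP sample below both controls and a log2 fold change of −0.37 (edgeR adjusted p = 0.605). Of 21 other genes of the fat body 5 were higher and 2 lower at an unadjusted p under 0.05, with a median log2 fold change of 0.34. Their summed level was 4216 and 4298 CPM in controls and 5128, 4663 and 5435 CPM in TRAP samples, and 0 passed the adjusted threshold. Antimicrobial peptide genes split evenly, with 3 of 20 higher and 3 lower, and the nearest to the threshold was Drsl4 at 1.42 (edgeR adjusted p = 0.0604). For comparison with these lists, 4.68% of all genes were higher and 4.41% lower at an unadjusted p under 0.05.

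**Figure D2:**
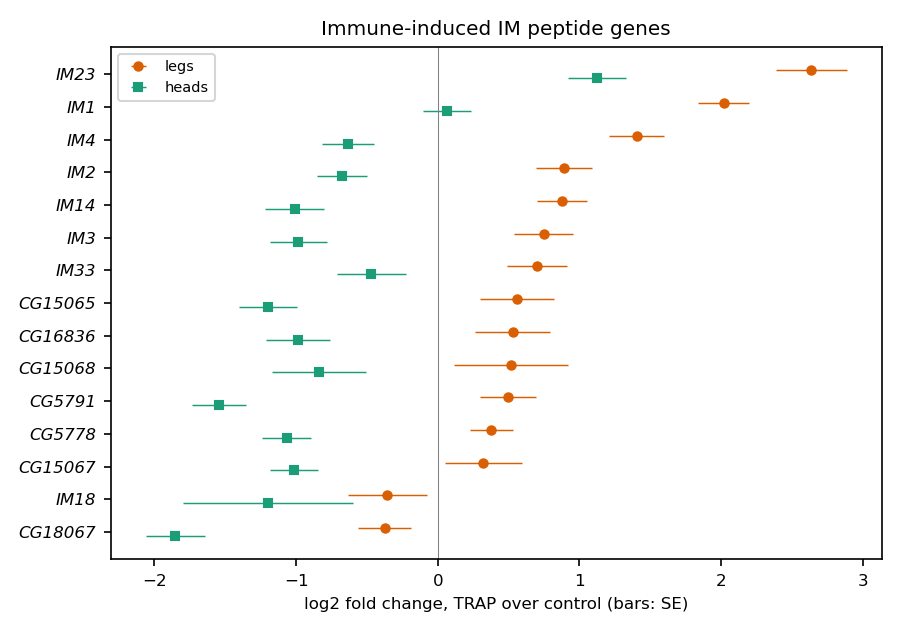
Log2 fold change (TRAP over control) of the 15 IM peptide genes in legs and in heads, with standard errors as bars. Only IM23, IM1 and IM4 pass the adjusted threshold in legs, while most of the 15 lie below 0 in heads.

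The remaining genes that rose included a peroxidase, a cuticle protein and a glutathione S-transferase. Pxd, the peroxidase, was at 13.02 and 20.9 CPM in controls and at 70.8, 59.6 and 66.4 CPM in TRAP samples, with a log2 change of 1.95 ± 0.23 (SE, adjusted p = 0.0135 in edgeR). Cpr49Ah, a structural protein of the cuticle, was at 21.9 and 29.2 CPM in controls and at 92.2, 84.5 and 56.3 CPM in TRAP samples, with a log2 change of 1.60 ± 0.25 (SE, adjusted p = 0.0446 in edgeR). GstE1, a glutathione S-transferase, was at 86.9 and 100.7 CPM in controls and at 199, 212 and 289 CPM in TRAP samples, with a log2 change of 1.32 ± 0.21 (SE, adjusted p = 0.0475 in edgeR). GstE1 was the only one of 34 glutathione S-transferase genes to pass. At an unadjusted p under 0.05, 4 were higher and 0 lower, beside 4.68% and 4.41% of all genes. Its overlapping neighbour GstE10 had a log2 fold change of 0.70 and GstE2 one of 0.80, neither under the adjusted threshold. Of the 16 genes that rose, the one with the highest log2 fold change was tut, known as a repressor of translation in the male germ line, at 0.224 and 0.394 CPM in controls and 4.55, 5.88 and 9.71 CPM in TRAP samples. Its change was 4.43 (standard error 0.62, edgeR adjusted p = 0.0308), at levels below 10 CPM in every sample.

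Of the 5 other genes that rose, all less well characterised, CG12560, a predicted glycine N-acyltransferase, was at 6.92 and 7.27 CPM in controls and at 24.6, 39.5 and 41.4 CPM in TRAP samples. CG6891, predicted to bind actin, was at 5.73 and 8.17 CPM in controls and at 21.3, 24.7 and 35.9 CPM in TRAP samples. CG30154 was at 37.3 and 46.2 CPM in controls and at 115, 122 and 99.5 CPM in TRAP samples. Groups were again separate in each. Their log2 fold changes were 2.31, 1.97 and 1.43 (edgeR adjusted p = 0.0105, 0.0363 and 0.0222). CG13155 and CG14752 had log2 fold changes of 2.20 and 2.15 (edgeR adjusted p = 0.0354 and 0.0274). CG13155 lies 218 bp from the cuticle gene Cpr49Ab, which had a value of 1.47 (edgeR adjusted p = 0.254).

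CG14456 (FBgn0037176, chromosome 3L, 22687222 to 22688288) had the lowest adjusted p of all genes. It was measured at 534 and 519 CPM in the controls and at 0.0154, 0.0136 and 0.115 CPM in the TRAP samples. TRAP 1 and TRAP 2, with 1 count each, were under the 3-count limit, and TRAP 3 had 9 counts. The log2 fold change was −13.31 ± 0.52 (SE, adjusted p = 7.6e-06 in edgeR), and this gene alone passed in 16 of the 16 alternative settings. The gene beside it, CG14455, 135 bp away, was at 0.486 and 0.860 CPM in controls and at 0 in all TRAP samples, and its change had an edgeR adjusted p of 0.298.

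A further group was present in controls and at or near 0 in TRAP samples. CG14635 was at 6.07 and 14.0 CPM in controls and had no count in any TRAP sample. Its control mean was about 221-fold above 3 counts in the smallest library, taken without TMM scaling. The decrease of CG14635 was at least of that order. CR43684, a noncoding RNA, was at 1.26 and 33.8 CPM in controls and had 1 count in TRAP 2 and none in the others, and CR44493 was at 2.50 and 4.43 CPM in controls with 1 count in TRAP 2 and none in the others. Most of the CR43684 signal came from control 2. GluRIA, a subunit of ionotropic glutamate receptors, was at 5.21 and 4.69 CPM in controls and at 0.0154, 0.0544 and 0.102 CPM in TRAP samples. For GluRIA the log2 fold change was −6.38 ± 0.92 (SE, adjusted p = 0.0363 in edgeR). CG14635, CR43684 and CR44493 had edgeR adjusted p of 0.00453, 0.0274 and 0.0363. They overlap CG43867, Sytbeta and dpr2 in the annotation, and those 3 genes had overlapping groups and log2 fold changes of 0.44, −0.21 and −0.61.

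In 4 other genes that fell, control 2 held most of the signal. The scpr genes encode secreted proteins with an SCP domain, and scpr-A and scpr-B lie 192 bp apart on chromosome 3R. scpr-A was at 37.5 and 141 CPM in controls and at 3.41, 3.89 and 10.4 CPM in TRAP samples, and scpr-B was at 30.9 and 122 CPM in controls and at 2.26, 2.88 and 8.22 CPM in TRAP samples. scpr-C was at 86.7 and 387 CPM in controls and at 22.2, 29.6 and 32.5 CPM in TRAP samples. CG9314, a predicted catalase, was at 107 and 554 CPM in controls and at 18.6, 26.4 and 34.4 CPM in TRAP samples. For each of them control 1 was still above every TRAP sample. The log2 fold changes were −3.92, −4.10, −3.07 and −3.64 (edgeR adjusted p = 0.0404, 0.0462, 0.0475 and 0.0404). Without control 2 they were −2.68, −2.81, −1.64 and −2.03, and none passed. scpr-A and scpr-B are paralogs, and how the counting divided their reads is not known, so the value of each alone is uncertain.

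The remaining genes that fell had log2 fold changes between −1.44 and −1.26. CG2010 was at 81.6 and 83.4 CPM in controls and at 35.7, 24.0 and 31.6 CPM in TRAP samples, a log2 change of −1.44 ± 0.19 (SE, adjusted p = 0.0274 in edgeR). The kinase gene sqa was at 37.5 and 38.4 CPM in controls and at 16.0, 14.1 and 14.0 CPM in TRAP samples, a log2 change of −1.37 ± 0.17 (SE, adjusted p = 0.0203 in edgeR). In both the highest TRAP sample was well under the lower control. CG42319 and the overlapping noncoding genes CR44644 and CR44645 had values of −1.26, −1.35 and −1.36 (edgeR adjusted p = 0.0363, 0.0392 and 0.0446). CR44644 lies 137 bp from Obp57a, an odorant-binding protein gene at 2911 and 2922 CPM in controls and 1341, 1174 and 2161 CPM in TRAP samples, whose log2 fold change of −0.90 had an edgeR adjusted p of 0.21.

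The genes that changed were unevenly placed in the genome, a pattern that was looked for after the values were seen. Chromosome arm 2R held 16 of the 33, 10 that rose and 6 that fell, while it held 20.5% of all genes tested. Within 50000 bp of another changed gene lay 15 of the 33 (45.5%), while 3.25% of all genes tested lay that close to one of the 33. No test was made of either count. Several pairs are relatives side by side (IM23 with IM1, scpr-A with scpr-B), while CG11893 and CHKov1 moved in opposite directions.

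Markers of the targeted neurons were next compared, because the driver labels motor axons. DIP-gamma itself had 0 and 6 counts in controls and 18, 0 and 0 counts in TRAP samples, so its mRNA was at or near the limit of detection in both groups and its level does not check the genotype labels. VGlut, the vesicular glutamate transporter of motor neurons, was at 37.6 and 30.4 CPM in controls and at 29.4, 27.5 and 42.7 CPM in TRAP samples. The groups overlapped, and the log2 fold change was −0.03 ± 0.23 (SE, adjusted p = 0.981 in edgeR). Of the 14 motor neuron genes tested 0 passed the edgeR threshold, 0 were under an unadjusted p of 0.05 and 0 were called by DESeq2, with a median log2 fold change of −0.12. Transcription factors of motor neurons such as eve, exex, Lim3 and HGTX stayed under 2 CPM in all 5 samples.

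Genes used by neurons in general gave the same picture. Of 54 pan-neuronal genes 0 passed the edgeR threshold and 1 did with DESeq2, a decrease, and at an unadjusted p under 0.05 there were 1 higher and 3 lower. The median log2 fold change was −0.07, and the summed level was 3251 ± 16.1 CPM (SD, n = 2) in controls and 3046 ± 76.8 CPM (SD, n = 3) in TRAP samples. Not every gene on this list is restricted to neurons. Atpalpha, which is also on the septate junction list, averaged 679 CPM of that sum in controls. The sum therefore also measures RNA of other leg tissue. The synaptic vesicle protein gene nSyb was at 100.5 and 73.2 CPM in controls and at 72.9, 89.5 and 85.3 CPM in TRAP samples, and elav, an RNA-binding protein of all neurons, was at 14.5 and 19.2 CPM in controls and at 16.1, 21.3 and 22.2 CPM in TRAP samples. Neither gene separated the groups. The microtubule-associated protein gene futsch was at 25.5 and 20.2 CPM in controls and at 31.6, 35.6 and 28.1 CPM in TRAP samples. Here every TRAP sample exceeded both controls, and the log2 fold change was 0.47 (edgeR adjusted p = 0.488). Genes of sensory neurons, whose cell bodies lie within the leg, had a median of −0.32, with 0 of 31 higher and 3 lower at an unadjusted p under 0.05, and 0 in either direction after adjustment in edgeR or DESeq2. Among them ppk23, a channel of taste neurons, was at 885 and 890 CPM in controls and at 545, 813 and 514 CPM in TRAP samples. For the glial list the median was −0.16, with 0 of 20 higher and 1 lower at an unadjusted p under 0.05. Among all genes tested, 4.68% were higher and 4.41% lower at that level.

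Genes of the cytosolic ribosome were higher in TRAP samples almost without exception, although no single one passed the adjusted threshold in edgeR. Of 88 ribosomal protein genes tested, 82 were higher and 0 lower at an unadjusted p under 0.05, and the same 82 had every TRAP sample above both controls. They were exactly those members whose mean level reached 10 CPM. Their log2 fold changes ranged from 0.39 to 1.14 and the edgeR adjusted p from 0.0642 to 0.512. Over all genes, 4.68% were higher at the unadjusted level, and 11.8% had every TRAP sample above both controls. RpS25 was at 408 and 319 CPM in controls and at 727, 638 and 578 CPM in TRAP samples (log2 fold change 0.83, edgeR adjusted p = 0.128). RpL10, whose coding sequence is also part of the transgene, was at 366 and 304 CPM in controls and at 571, 572 and 477 CPM in TRAP samples (log2 fold change 0.69, edgeR adjusted p = 0.172). Reads of the transgene and of the endogenous gene cannot be told apart in these counts.

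The median log2 fold change of the 88 genes was 0.78, and their summed level was 15060 and 11868 CPM in controls and 25214, 22179 and 20534 CPM in TRAP samples. The 6 genes outside the pattern (RpS5b, RpS10a, RpS19b, RpS28a, RpL22-like and RpL37b) are all low paralogs. Of the 88 genes 75 were highest in TRAP 1, so the members do not vary independently of each other. DESeq2 called 80 of the 88 higher and 0 lower, beside 2.51% and 1.74% of all genes. Without TRAP 3, edgeR called 20. The study itself singles out this gene group in these samples, so the list is not independent evidence of its direction.

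Other parts of the translation and growth machinery had smaller differences. Translation factors had a median of 0.13. At an unadjusted p under 0.05, 6 of 51 were higher and 0 lower, beside 4.68% and 4.41% of all genes. The main elongation factor, eEF1alpha1, was at 1478 and 1341 CPM in controls and at 1971, 1749 and 1937 CPM in TRAP samples (log2 fold change 0.42, edgeR adjusted p = 0.42). Tctp, a small growth-related protein, was at 318 and 285 CPM in controls and at 451, 420 and 466 CPM in TRAP samples. All TRAP samples exceeded both controls, and the log2 fold change of 0.56 (standard error 0.16) had an edgeR adjusted p of 0.216. Tom7, of the mitochondrial import pore, was at 324 and 268 CPM in controls and at 441, 411 and 448 CPM in TRAP samples (log2 fold change 0.55, edgeR adjusted p = 0.257), while the 18 import genes together had a median of −0.11.

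RNAs of the mitochondrial genome, whose mRNAs are translated by ribosomes of the mitochondria rather than cytosolic ones, were also more abundant in TRAP samples. Their summed level was 3982 ± 643 CPM (SD, n = 2) in controls and 7672 ± 1536 CPM (SD, n = 3) in TRAP samples. The list also holds tRNA genes, which are not translated. Of its 34 genes 11 averaged at least 10 CPM, and in 10 of these every TRAP sample was above both controls. Of 34 genes 11 were higher and 0 lower at an unadjusted p under 0.05, 23 had every TRAP sample above both controls, and 0 passed in edgeR, whereas 8 did in DESeq2. Over all genes, 4.68% were higher and 4.41% lower, 11.8% had every TRAP sample above, and DESeq2 called 2.51% higher. mt:CoIII, a subunit of cytochrome c oxidase, was at 1362 and 1076 CPM in controls and at 2281, 2156 and 2927 CPM in TRAP samples (log2 fold change 1.01, edgeR adjusted p = 0.104). The nuclear genes of oxidative phosphorylation did not move with them, with a median of −0.07 over 83 genes, 1 higher and 7 lower at an unadjusted p under 0.05.

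**Figure D3:**
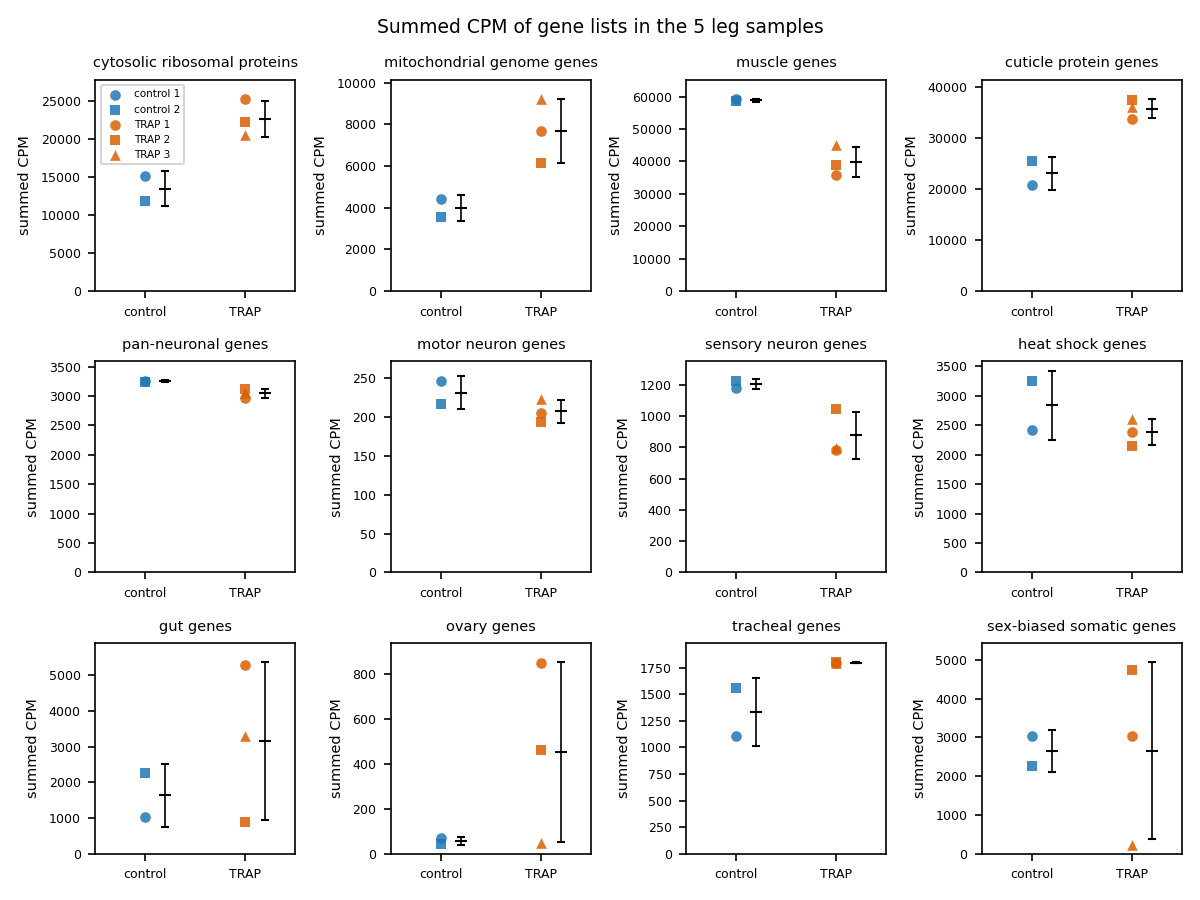
Summed CPM of 12 gene lists in each leg sample, with bars for the mean and SD of the 2 controls and the 3 TRAP samples. Ribosomal protein, mitochondrial genome and cuticle sums are higher in all TRAP samples, muscle sums are lower, and ovary sums are high in TRAP 1 and TRAP 2 alone.

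Muscle genes were lower in TRAP samples. Muscle fills most of the leg and is the target of the labelled axons, and its genes took 58884 ± 497 CPM (SD, n = 2) in controls and 39879 ± 4665 CPM (SD, n = 3) in TRAP samples. At an unadjusted p under 0.05 there were 18 of 41 lower and 0 higher, 22 had every TRAP sample below both controls, 2 had every TRAP sample above, and the median log2 fold change was −0.33. Over all genes, 4.41% were lower and 4.68% higher, and 12.8% lay below and 11.8% above both controls. Of the 41 muscle genes 0 passed in edgeR, and 10 were lower in DESeq2, which called 1.74% of all genes lower. SERCA, the calcium pump of the sarcoplasmic reticulum, was at 4725 and 4726 CPM in controls and at 2643, 2301 and 2640 CPM in TRAP samples (log2 fold change −0.90, edgeR adjusted p = 0.0687). Act79B, an actin of tubular leg muscle, was at 13729 and 14757 CPM in controls and at 6969, 7633 and 9887 CPM in TRAP samples (log2 fold change −0.80, edgeR adjusted p = 0.141). Without control 1 the number at an unadjusted p under 0.05 was 9, and without TRAP 1 it was 10. In such bulk samples, a smaller share of a cell type in the lysate and less ribosome-bound RNA from each of its cells cannot be told apart.

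Among cuticle and tracheal genes more were higher than lower in TRAP samples. Of 91 cuticle protein genes 1 (Cpr49Ah) rose, 14 were higher and 1 lower at an unadjusted p under 0.05, and the median log2 fold change was 0.67. Over all genes, 4.68% were higher and 4.41% lower at that level. In one fit of 3 tissues, over all 123 cuticle genes, there were 2 higher and 4 lower. In that fit 260 of all 16841 genes were higher and 660 lower, so the cuticle counts were near the background. Their sum was 23081 ± 3304 CPM (SD, n = 2) in controls and 35793 ± 1856 CPM (SD, n = 3) in TRAP samples. Acp1, an adult cuticle protein, took most of it, at 11126 and 15338 CPM in controls and at 19546, 24198 and 22209 CPM in TRAP samples (log2 fold change 0.73, edgeR adjusted p = 0.204). The study had used Acp1 as a negative control transcript in its dilution test by RT-qPCR. Among 12 tracheal genes 4 were higher and 0 lower at an unadjusted p under 0.05, with a median of 0.28, and Gasp, a chitin-binding protein, was at 364 and 508 CPM in controls and 685, 614 and 777 CPM in TRAP samples (log2 fold change 0.67, edgeR adjusted p = 0.249). In summed level, muscle genes were thus lower and cuticle genes higher in the TRAP samples. In edgeR 0 of 41 muscle genes and 1 of 91 cuticle genes passed the adjusted threshold. The part of these sums in the gene changes above was not tested.

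**Figure D4:**
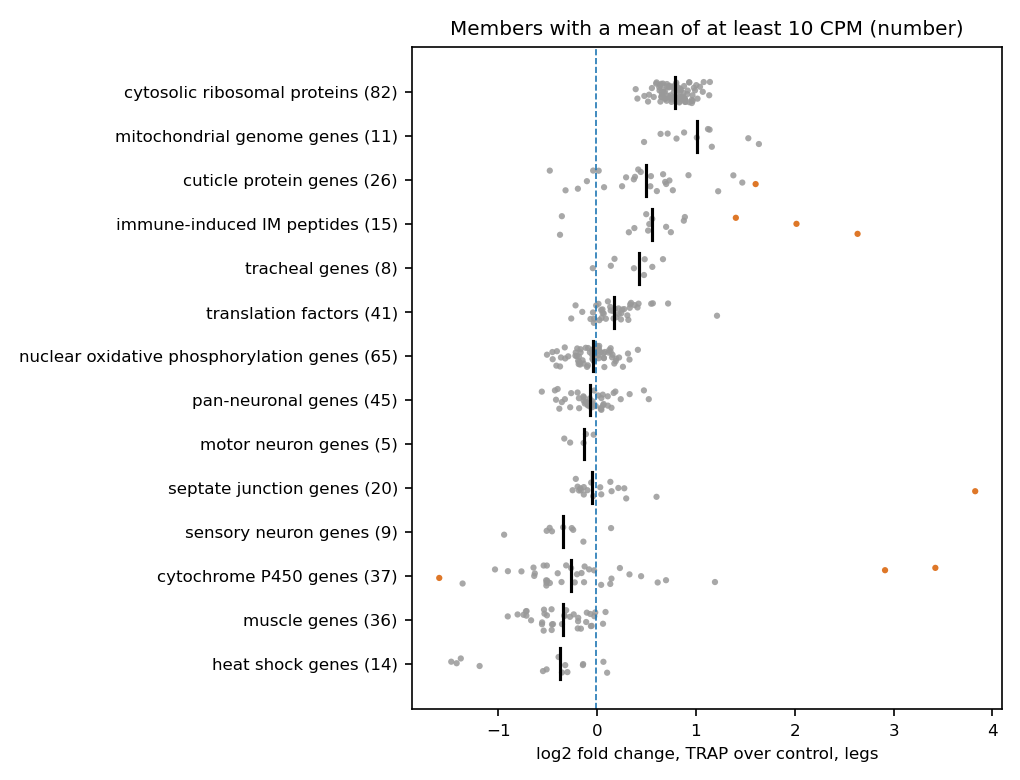
Log2 fold change (TRAP over control) of list members that average at least 10 CPM, with 1 point per gene, a black bar for the median of the list and orange points for genes under the adjusted threshold. The dashed line marks the median of all 6220 genes at that level, −0.01, and the ribosomal protein genes all lie to its right.

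Some lists differed by single libraries rather than by group. Ovary genes summed to 71.0 and 44.3 CPM in controls and to 848, 460 and 47.6 CPM in TRAP samples, so that TRAP 1 and TRAP 2 were high and TRAP 3 was not. At an unadjusted p under 0.05 15 of 29 were higher, and without control 2 there were 3. The chorion gene Cp7Fb was at 0.0125 and 0.227 CPM in controls and 69.2, 264 and 4.69 CPM in TRAP samples. Gut genes summed to 1025 and 2273 CPM in controls and to 5292, 884 and 3307 CPM in TRAP samples, again without order by group. Heat shock genes had a median log2 fold change of −0.55 and 13 of 25 lower at an unadjusted p under 0.05, but 18 of the 25 were highest in control 2, and without control 2 the median was 0.07. Hsp70Ab, a chaperone induced by stress, was at 2.48 and 34.8 CPM in controls and at 2.48, 2.08 and 2.65 CPM in TRAP samples. Beside the counts of these lists, 4.68% of all genes were higher and 4.41% lower at an unadjusted p under 0.05.

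The same driver and transgene were used in heads, which allowed the change in each leg gene to be set against a separate set of 3 TRAP and 3 control samples. Heads came from males only and were sequenced as another order, so tissue, sex and order cannot be told apart. Of the 16 genes that rose in legs 7 (43.8%) also rose in heads, where 8.22% of the 14132 genes tested in both tissues rose. They were tut, Ssk, CG11893, Cyp6a17, Cyp6a20, IM23 and CG6891, and 1 gene (IM4) fell in heads. Of the 17 genes that fell in legs 8 (47.1%) also fell in heads, where 11.1% did. They were CG14456, Cyp4p2, CHKov1, Cyp6a2, CG2010, CG42319, CR44644 and CR44645, and 1 gene (CR43684) rose in heads, where 1 TRAP sample had 15.7 CPM and the other two had 0 and 0.176 CPM. Legs and heads shared no control sample, but both tissues came from the same kinds of cross. A difference between the paternal strains would therefore be present in both, and it cannot be told apart from the driver. For CG14456 the heads had 793, 671 and 581 CPM in controls and 0.818, 1.90 and 1.08 CPM in TRAP samples, again without overlap. In heads Ssk had a log2 fold change of 2.74 and Cyp6a17 one of 2.44 (edgeR adjusted p = 0.00162 and 0.00266), and neither differed detectably between tissues in the edgeR interaction test, with differences of 1.12 (standard error 0.58) and 1.01 (standard error 0.44).

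**Figure D5:**
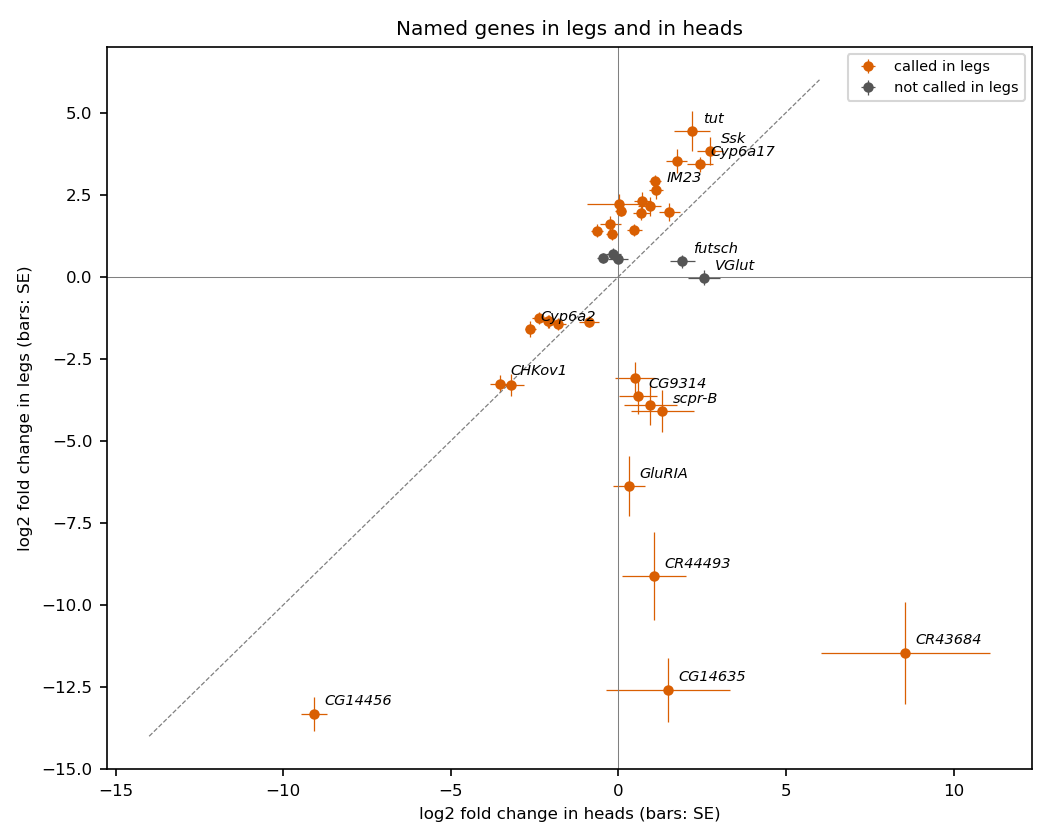
Log2 fold change (TRAP over control) of the named genes in heads (horizontal axis) and in legs (vertical axis), with standard errors as bars and a dashed line of equal change. Ssk, Cyp6a17, Cyp4p2 and CHKov1 lie near the line, while VGlut is near 0 in legs and at 2.56 in heads.

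The test of the genotype by tissue interaction (edgeR quasi-likelihood) gave 717 of 16706 genes with a more positive change in legs (4.29%) and 425 with a more negative one (2.54%). Neuronal genes marked the difference. In heads 35 of 54 pan-neuronal genes rose, with a median log2 fold change of 1.30, and 21 of the 54 were more negative in legs. Of all genes tested in both tissues 8.22% rose in heads and 11.1% fell there. VGlut went from 69.3 ± 6.66 CPM in head controls to 408 ± 254 CPM in head TRAP samples (SD, n = 3 each), a log2 fold change of 2.56, and the change in legs was lower by a log2 value of −2.55 (standard error 0.59, edgeR adjusted p = 0.0253). DIP-gamma, too low in legs to compare, had a log2 fold change of 5.57 in heads. Of the 14 motor neuron genes 9 rose in heads, with a median of 1.95, and 1 (VGlut) was more negative in legs under the adjusted threshold.

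Ribosomal protein and IM peptide genes differed between tissues in the opposite direction. In heads ribosomal protein genes had a median of −0.06, with 1 of 88 higher and 1 lower, and 33 of the 88 were more positive in legs and 0 more negative. IM peptide genes had a median of −0.99 in heads, where 10 of 15 fell and 1 rose, and 12 of the 15 were more positive in legs. IM4 was at 221, 219 and 169 CPM in head controls and at 114, 134 and 144 CPM in head TRAP samples, the reverse of its order in legs. Of the glutathione S-transferase genes 15 of 34 were also more positive in legs. Their median was 0.09 in legs and −0.75 in heads, where 20 of the 34 fell. Cuticle genes had 9 of 91 and P450 genes 10 of 76 more positive in legs, with 0 more negative in each list. In heads 3 of the 91 cuticle genes rose and 9 fell. The median of the P450 genes was negative in both tissues, −0.16 in legs and −0.50 in heads, where 27 of the 76 fell and 4 rose. Over all genes tested in both tissues, 8.22% rose and 11.1% fell in heads, so the cuticle list was near that share. In the interaction test 4.29% of genes were more positive in legs and 2.54% more negative. Genes of the mitochondrial genome had no counts in any head sample and could not be compared. The interaction counts rested on the leg controls, with 81 and 161 genes in the 2 directions without control 1 and 34 and 65 without control 2.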

How the data were processed

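Polyadenylated RNA bound to Flag-tagged ribosomes was measured in 5 leg samples, with 6 head samples for comparison. The authors made cDNA with SMART-Seq HT and libraries with Nextera XT. Reads were trimmed (Trim Galore), mapped to BDGP6 (HISAT2 2.2.1, SAMtools 1.12) and counted per gene (SeqMonk). The deposited values are raw counts. The strand setting, and whether reads or pairs were counted, are not given in the sources used here. Coordinates are those of the tables.

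Samples were grouped by their labels. Every gene counted in any of the samples compared (minimum count 1) was tested with edgeR 4.0.16 (R 4.3.3, TMM factors, two-sided quasi-likelihood F-test, Benjamini-Hochberg over all genes, threshold 0.05), between leg groups and as a genotype by tissue interaction with heads. Standard errors were derived from the F statistic. CPM use TMM-scaled library sizes, except for the 3-count limit, which uses unscaled ones. Reads carry no molecular identifiers, so the 3-count limit covers counting error only. No replicate was a copy of another (chi-square test). The tests were checked on simulated data, with changes planted in well-counted genes and a smaller spread between samples than in legs. That check gives no error rate for the leg data.

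Members and gene lists were chosen with earlier results of these data known. The text names genes of the study, all genes under the threshold, the 3 members of each list with the most counts, and nearest neighbours. Others (roX, Hsp70Ab, nSyb, elav, mesh, Tsp2A, eve, exex, Lim3, HGTX, SERCA and the low ribosomal paralogs) were chosen after their values were seen. Alternatives were DESeq2 1.42.0, other scaling (relative log expression, library size, TMM without ribosomal protein, muscle and mitochondrial genes), other filters, a robust fit, a fit of 3 tissues, a replicate block, other thresholds and leaving out each leg sample. An edgeR likelihood ratio test and DESeq2 on genes counted in every sample were added after the data were seen. Sequences were not used here.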

Additional observations from a re-analysis of the deposited data

Results flagged for a closer look

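Of 39 named genes tested for a difference between legs and heads, 21 had one under the adjusted threshold of the edgeR interaction test, and 19 of these were among the 33 genes that changed in legs. Each value below is the log2 fold change (TRAP over control) in legs minus that in heads, and tissue, sex and sequencing order cannot be told apart in it. Among genes that fell in legs the difference was −4.18 for CG14456, which fell in both tissues, and −13.72 for CG14635, −19.91 for CR43684, −10.04 for CR44493 and −6.63 for GluRIA, the first 3 of them at or near 0 in most leg TRAP samples, where the fitted value depends on the prior count. CG14456 was likewise under 3 counts in leg TRAP 1 and TRAP 2. In heads 1 TRAP sample held nearly all counts of CR43684. The difference was −4.82 for scpr-A, −5.36 for scpr-B, −3.53 for scpr-C and −4.18 for CG9314, which were highest in leg control 2. CG42319 fell in both tissues, by more in heads, with a difference of 1.14. Among genes that rose in legs it was 2.07 for IM4, 1.99 for IM1 and 1.53 for IM23, 1.86 for Cyp6a20, 1.80 for CG11893, 1.87 for Cpr49Ah, 1.62 for CG12560, 1.55 for GstE1 and 1.29 for Pxd. VGlut had a difference of −2.55 and Tctp one of 1.06, and neither passed the threshold in legs alone.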

How the results depend on the processing

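The counts of 16 genes higher and 17 lower in legs were 357 and 247 with DESeq2, 294 and 192 with DESeq2 on genes counted in every sample, 63 and 73 with the edgeR likelihood ratio test, 9 and 6 with at least 1 count in every sample, 3 and 2 with filterByExpr, 6 and 4 at an adjusted p under 0.01, 12 and 7 with a replicate block, and 0 and 3 in one fit of 3 tissues. Leaving out 1 leg sample gave 0 to 95 higher and 1 to 54 lower. The other scaling factors gave 16 and 17 again, with the same 33 genes. CG14456 alone passed in 16 of 16 alternatives. Correlations of deviations from the group means were 0.0372 and 0.0581 for the pairs with replicate number 1 and 2. With 2 controls these deviations mirror each other, so the values cannot show whether samples were paired. The block is therefore not taken as a paired analysis. Changes in legs against heads were 0 more positive and 3 more negative in one fit of 3 tissues and 1027 and 1186 with DESeq2, and leaving out a leg sample gave 34 to 502 and 65 to 352. Ribosomal protein genes under the adjusted threshold numbered 80 with DESeq2, 79 with DESeq2 on genes counted in every sample, 7 with the likelihood ratio test, 2 with a robust fit, and 0 to 20 with a sample left out. At an unadjusted p under 0.05, one fit of 3 tissues gave 30 ribosomal protein genes higher, 1 muscle gene lower and 2 mitochondrial genome genes higher, the likelihood ratio test gave 10 muscle genes lower, and leaving out a sample gave 55 to 82, 9 to 18 and 5 to 12. Over all 16841 genes of the fit of 3 tissues, 260 were higher and 660 lower at that level. For IM peptide genes the count of those higher was 2 in that fit. For ovary genes this count was 3 with both filters on every sample, 7 with a robust fit and 3 to 17 with a sample left out. The change of VGlut ranged from −0.26 to 0.13 with a sample left out, and turned positive without control 1 (0.13), TRAP 1 (0.05) or TRAP 2 (0.07). That of DIP-gamma ranged from −4.57, without TRAP 1, to 5.80. The cause of these differences was not tested. With 2 controls, a biological coefficient of variation of 0.67 and 0 counts in many samples, changes in genes of low level or of modest size could be missed, and genes under 0.0455 CPM were below 3 counts in the smallest library.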

Other observations

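Some tissues of the leg and body that belong to no comparison above were also represented. Haemocyte genes, which include the ferritin subunits Fer1HCH and Fer2LCH, had a median log2 fold change of −0.23 in TRAP over control legs, with 2 of 20 higher and 3 lower at an unadjusted p under 0.05 (edgeR), where 4.68% of all genes were higher and 4.41% lower. Fer1HCH was at 899 and 866 CPM in controls and at 815, 705 and 769 CPM in TRAP samples. Mitochondrial ribosomal proteins, encoded in the nucleus, had a median of 0.15, with 7 of 75 higher and 0 lower. Odorant-binding proteins had 4 of 49 higher and 4 lower, and UDP-glycosyltransferases 0 of 17 higher and 1 lower. Genes of the testis and accessory gland had 0 of 37 higher and 5 lower, and their sums were 365 and 313 CPM in controls and 177, 526 and 194 CPM in TRAP samples. Acp62F, a seminal fluid protein, was at 72.97 CPM in TRAP 2, the library without roX2, and at 0.318 to 6.98 CPM in the other 4. Glue and gland genes of the larva were under 10 CPM in sum in every sample, with 5 of 11 tested. In all of these lists 0 genes passed the adjusted threshold in edgeR, and DESeq2, which called 2.51% of all genes higher and 1.74% lower, called 1 haemocyte and 1 mitochondrial ribosomal gene higher, 3 odorant-binding genes higher and 3 lower, and 3 testis or accessory gland genes lower.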
